A study of Arabidopsis thaliana with 30 samples.

Results

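Transcript levels in unheated seedlings of the Arabidopsis thaliana genotype smxl6 smxl7 smxl8 were compared with those of the wild type Col-0, gene by gene. The comparison took the 3 control libraries labelled with each genotype, 6 of the 30 libraries of the series, and each genotype name below stands for the libraries so labelled. Of the 38088 genes in the table, 21531 had values high enough to be tested. All of these seedlings were 7 days old and grew on agar plates at 22 °C under long days, after a cold period in water. The series also holds the libraries labelled smxl4 smxl5, ski2 dcl4 and ski2 dcl4 dcl2, and a heated set of each genotype (85 min at 44 °C, in sealed plates in a water bath). Whole seedlings were sampled, and the hour of harvest is not in the labels. In bulk RNA of this kind, fewer cells of a type and less RNA per cell cannot be told apart. The labels name no alleles and do not say whether the 3 libraries of a genotype are separate cultures, so the tests weigh differences against a spread between samples that may be technical.

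Strigolactones are plant hormones made from carotenoids that hold back shoot branching. The receptor D14 and the F-box protein MAX2 mark SMXL6, SMXL7 and SMXL8 for destruction when the hormone is present, and these proteins otherwise repress transcription together with TOPLESS-type corepressors. BRC1, a TCP transcription factor that keeps axillary buds dormant, is the best known gene under their repression, and the triple mutant is known for its low branching and for suppressing the branching of max2.

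Levels are given as FPKM, a fragment count divided by transcript length and by library size. Changes are differences of log2(FPKM + 1), which understate the change of genes with low levels. A gene was called changed at an adjusted p under 0.05 in limma (linear models across all genes and all 30 libraries, Benjamini-Hochberg adjustment over the genes tested), and every adjusted p below is from it. In smxl6 smxl7 smxl8, 2891 genes rose and 2834 fell, which is 13.4% and 13.2% of the genes tested. The 3 libraries of smxl6 smxl7 smxl8 did not overlap with those of Col-0, in either direction, in 8048 genes (37.4%). Most changes were small: 179 rose by at least 1 on the log2 scale (0.831%) and 435 fell by as much (2.02%), and the median absolute change over all genes was 0.17. The median over all genes was 0.01. With only the 6 libraries in the fit, 1321 rose and 1593 fell. In that fit, 22 of 54 counts of rises or falls in a list of genes moved by over 1.5 times, among them those of strigolactone, cytokinin, gibberellin, abscisic acid, salicylate, nitrate, photosynthesis and cell division genes. Those of evening clock, starch, early stress, cold, jasmonate, iron, anthocyanin enzyme, auxin and low-sugar genes did not.

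Summed FPKM lay between 735524 and 904077 in the control libraries, and 1 FPKM in a gene of 1 kb stood for roughly 16.8 to 21.1 reads in the 6 libraries compared, an estimate from the smallest steps of rare genes. Replicate 2 of smxl6 smxl7 smxl8 stood apart. It had the highest sum of the control libraries, against 789558 and 797150 in its group, and it correlated with them at r = 0.976 and 0.971 across genes, while they correlated at 0.983 with each other. Some of the list counts that change by over 1.5 times without it, or without another library, are given that way too. With 1 library left out in turn, list counts moved by as much in 58 cases and did not in 266. A count given alone below is therefore not shown to be stable. Genes of shoots and roots were present in each of the 6 libraries: the photosynthesis genes listed summed to between 107821 and 155862 FPKM, the root markers to between 107 and 142, and the seed storage markers to no more than 1.43. The control libraries labelled smxl4 smxl5 serve as a second mutant group below, although SMXL5 was higher in them, at 14.6 FPKM or more, than in Col-0, at 4.69, 4.97 and 4.06. They are compared directly with smxl6 smxl7 smxl8, a contrast without Col-0, in which 2111 genes were higher in smxl6 smxl7 smxl8 (9.8%) and 1810 lower (8.41%).

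The mutated genes came first. SMXL6 (AT1G07200, chromosome 1, 2208477 to 2212718 in the TAIR10.1 assembly, as are all coordinates) stood at 5.57, 5.88 and 4.88 FPKM in Col-0 and at 3.12, 3.33 and 2.95 in smxl6 smxl7 smxl8, a fall of 0.64 ± 0.09 (SE, adjusted p = 1.05e-05). SMXL8 (AT2G40130) stood at 1.3, 0.969 and 0.738 FPKM against 0.415, 0.419 and 0.453, a change of −0.48 ± 0.11 (adjusted p = 0.00356). For both genes the groups did not overlap. The libraries labelled smxl4 smxl5 held SMXL8 at 0.557, 0.891 and 0.553 FPKM, and the direct difference from them did not pass (−0.22, adjusted p = 0.208). SMXL6 was lower in smxl6 smxl7 smxl8 than in those libraries by 0.42 (adjusted p = 0.00115), and SMXL7 was higher by 0.29 (adjusted p = 0.0438). SMXL7 (AT2G29970) did not differ by the test: 8.65, 8.81 and 6.81 FPKM in Col-0 and 7.79, 9.32 and 7.48 in smxl6 smxl7 smxl8 (change 0.02 ± 0.10, adjusted p = 0.928), with overlapping groups. After heat, SMXL7 was lower in smxl6 smxl7 smxl8, at 3.27, 2.84 and 3.45 FPKM against 7.00, 8.36 and 8.92 in Col-0 (−1.12, adjusted p = 1.49e-07). The heat and control libraries of that label thus disagree on SMXL7 (difference of the changes −1.13, adjusted p = 0.000193), and its level in the control libraries lends their label no support. A value per gene cannot show where in the gene the reads fell.

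BRC1 (AT3G18550, chromosome 3, 6383289 to 6385815) was among the largest rises. Its levels were 0.135, 0.131 and 0.182 FPKM in Col-0 and 9.34, 7.18 and 8.91 in smxl6 smxl7 smxl8, a change of 3.04 ± 0.12 (adjusted p = 1.47e-14). The control libraries labelled smxl4 smxl5 held no more than 0.0655 FPKM, and BRC1 was higher in smxl6 smxl7 smxl8 than in them by 3.19 (adjusted p = 4.92e-15). The control means were 0.183 FPKM for ski2 dcl4 and 0.156 FPKM for ski2 dcl4 dcl2, and every library of smxl6 smxl7 smxl8 lay far above them. Of the HD-ZIP genes known to act after BRC1 in buds, HB53 rose (0.660 to 1.43 FPKM on average, change 0.56, adjusted p = 0.0329), whereas HB21 and HB40 did not pass, at −0.22 and −0.19 (adjusted p = 0.20 and 0.51). The dormancy-associated genes DRM2 and DYL1 fell: DRM2 went from 263, 347 and 301 FPKM to 104, 117 and 97.6 (−1.50 ± 0.29, adjusted p = 0.00057) and DYL1 by 0.61 (adjusted p = 0.0117). Of 8 genes of branching and bud dormancy, 6 were tested, of which 2 rose and 2 fell, with a median of −0.20. BRC2 and TCP1, which stayed under the limit for testing, had means of 0.12 and 0.053 FPKM in Col-0 and 0.44 and 0.40 in smxl6 smxl7 smxl8. Without any 1 of 4 libraries (replicates 1 and 3 of either group) only BRC1 remained called among those that rose.

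Among 17 genes of strigolactone and karrikin signalling, 15 were tested, 2 rose, 4 fell and the median was −0.10. Over all genes tested 13.4% rose and 13.2% fell, so these counts stood no further from those shares than a few genes. The largest change was in AT5G06570 (chromosome 5, 2007419 to 2011179), annotated as an alpha/beta-hydrolase superfamily protein. It stood at 3.25, 3.79 and 3.14 FPKM in Col-0 and at 8.85, 10.2 and 8.35 in smxl6 smxl7 smxl8 (1.2 ± 0.17, adjusted p = 1.69e-05). In the libraries labelled smxl4 smxl5 it lay below both, at 1.13, 1.55 and 1.57, and the direct difference was 2.07 (adjusted p = 1.03e-08). BBX20, a B-box gene known as a karrikin response gene of seedlings, rose by 0.51. The genes that fell were D27, the carotene isomerase at the start of strigolactone synthesis (7.62 ± 1.55 to 4.87 ± 0.84 FPKM, mean ± SD, n = 3; −0.55, adjusted p = 0.00953), the karrikin receptor gene KAI2 (−0.41), and SMXL1 (SMAX1) and SMXL2, the targets of that receptor (−0.49 and −0.33). The 4 falls depended on single libraries: 1 passed without Col-0 replicate 1, 2 without Col-0 replicate 2 or smxl6 smxl7 smxl8 replicate 1, and 0 without smxl6 smxl7 smxl8 replicate 3. The receptor gene D14 (−0.07, adjusted p = 0.55) and MAX2 (0.21, adjusted p = 0.12) did not pass. CCD7 and CCD8, the carotenoid cleavage genes of the pathway, were too low to test; CCD8 had a mean of 0.49 FPKM in Col-0 and 0.15 in smxl6 smxl7 smxl8.

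Cytokinin genes that moved included CKX1, which encodes a cytokinin-degrading oxidase. CKX1 rose from 1.95, 1.59 and 1.6 FPKM to 8.89, 6.21 and 8.44 (1.69 ± 0.10, adjusted p = 2.69e-10), and it was higher than in the libraries labelled smxl4 smxl5 by 1.51 (adjusted p = 6.14e-10). The groups lay far apart. The type-A response regulator gene ARR16 rose by 0.52 and the isopentenyltransferase gene IPT3, for cytokinin synthesis, by 0.64, with replicate 2 (4.84 FPKM) inside the range of Col-0 (3.88 to 5.07). Of 14 tested cytokinin genes 5 rose and 0 fell, with a median of 0.11.

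**Figure D1:**
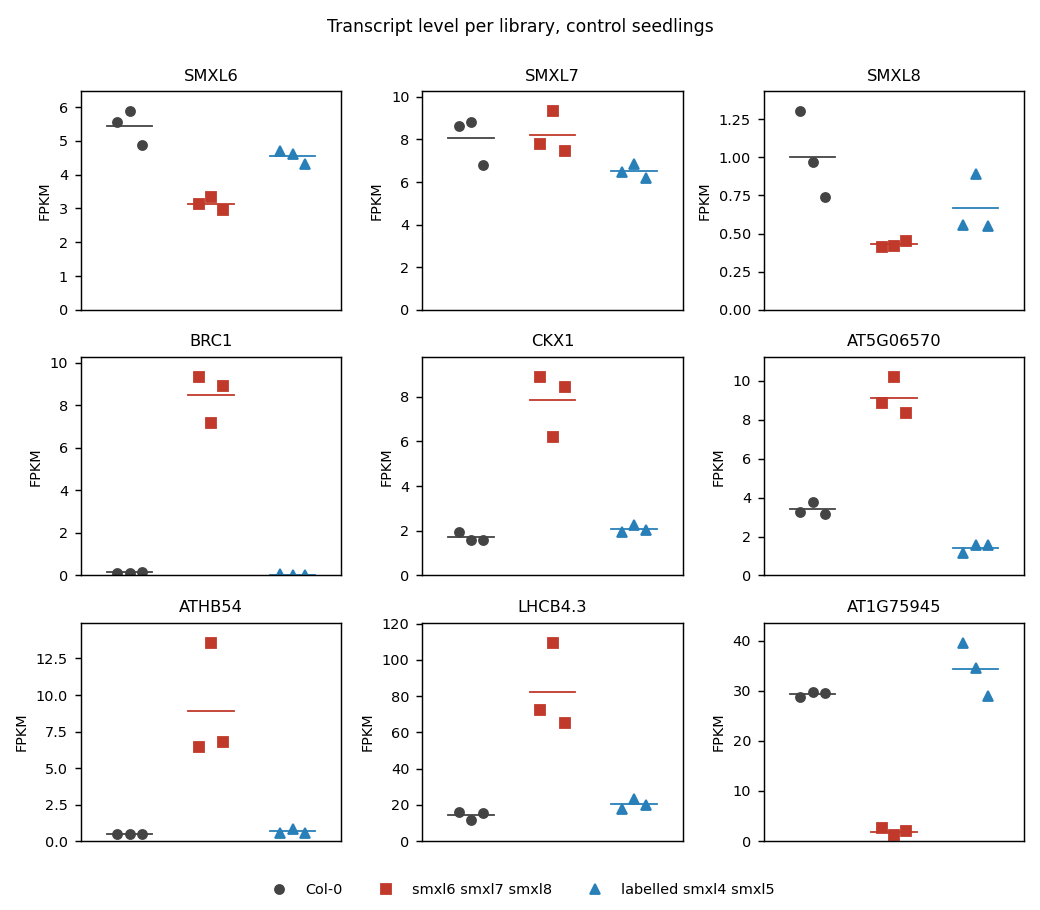
Transcript level (FPKM, vertical axis, from 0) of 9 genes in each control library of Col-0 (circles), smxl6 smxl7 smxl8 (squares) and the libraries labelled smxl4 smxl5 (triangles); horizontal bars are means of 3 libraries. BRC1, CKX1, AT5G06570, ATHB54 and LHCB4.3 are higher in every library of smxl6 smxl7 smxl8 than in any other library shown and AT1G75945 is lower, whereas SMXL7 overlaps between Col-0 and smxl6 smxl7 smxl8. For BRC1, ATHB54, LHCB4.3 and AT1G75945, lack of overlap with Col-0 was a condition of their choice.

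Several other large changes set smxl6 smxl7 smxl8 apart from both other groups. ATHB54, a homeobox-leucine zipper gene, rose from 0.512, 0.453 and 0.520 FPKM to 6.42, 13.6 and 6.79 (2.66 ± 0.19, adjusted p = 4.15e-09) and was higher than in the libraries labelled smxl4 smxl5 by 2.50 (adjusted p = 3.67e-09). LHCB4.3, a light-harvesting antenna gene of photosystem II, rose from 16.0, 11.7 and 15.5 FPKM to 72.5, 109 and 64.9 (2.41 ± 0.19, adjusted p = 1.66e-08), against no more than 23.2 in the libraries labelled smxl4 smxl5 (difference 1.93, adjusted p = 2.41e-07). AT1G75945, an uncharacterized gene, fell from 28.7, 29.7 and 29.5 FPKM to 2.52, 1.2 and 1.94 (−3.42 ± 0.18, adjusted p = 1.07e-11) and differed from the libraries labelled smxl4 smxl5 by −3.63 (adjusted p = 2.19e-12). In none of these 3 genes did smxl6 smxl7 smxl8 overlap with either group. Lack of overlap with Col-0 was a condition of their choice. AT4G08093, which has no product name, was at 14.7, 13.5 and 13.0 FPKM in smxl6 smxl7 smxl8 and at no more than 0.104 in Col-0 (3.83 ± 0.11, adjusted p = 3.89e-17). That gene was also high outside the smxl genotypes, with a control mean of 14.5 FPKM in ski2 dcl4 and 6.73 FPKM in ski2 dcl4 dcl2.

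The strand of the reads is not stated and near-identical copies can share reads, which touches pairs such as AOC1 and AOC2, CBF1 and CBF2, COR15A and COR15B, and BHLH38 and BHLH39 among the genes that follow. The clock genes differed widely. The circadian clock of Arabidopsis runs on morning genes such as CCA1 and LHY and on evening genes such as TOC1 and GI that repress or are repressed by them, and it times starch breakdown, cold and jasmonate responses among others. Of 14 evening genes 12 fell and 0 rose (median −1.14), and of 18 morning genes 8 rose and 5 fell (median 0.13). PRR5, a pseudo-response regulator, went from 33.8, 33.7 and 27.6 FPKM to 4.83, 4.31 and 4.42 (−2.56 ± 0.31, adjusted p = 3.37e-06). GI, a scaffold protein of photoperiod timing, went from 22.4, 22.1 and 21.5 to 7.48, 7.18 and 7.35 (−1.46 ± 0.13, adjusted p = 6.21e-08). FKF1, a blue-light receptor F-box gene, went from 5.53, 4.34 and 4.14 to 0.347, 0.317 and 0.192 (−2.13 ± 0.21, adjusted p = 2.89e-07). In all 3 genes the groups lay apart. TOC1 and LUX, a part of the evening complex, fell by 1.01 and 1.12, and LKP2 and CHE did not pass, at 0.16 and −0.16.

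On the morning side, LHY stood at 0.889, 1.08 and 1.08 FPKM in Col-0 and at 7.19, 7.92 and 8.28 in smxl6 smxl7 smxl8 (2.12 ± 0.26, adjusted p = 4.49e-06). CCA1 rose by 0.94, the cycling DOF factor gene CDF5 by 1.46 (1.05, 0.994 and 1.40 against 4.62, 5.77 and 4.36 FPKM) and LNK4 by 1.12. PRR7, a day-phase repressor, fell from 55.5, 56.4 and 52.8 FPKM to 30.3, 34.5 and 33.7 (−0.73 ± 0.09, adjusted p = 3.49e-06), and RVE7 fell by 1.25. Counts of morning genes that fell ranged lower in other fits: 2 without Col-0 replicate 1 or 2, and 3 without smxl6 smxl7 smxl8 replicate 2. Evening genes were low in the libraries labelled smxl4 smxl5 as well, and in the direct contrast 13 of the 14 did not pass and 1 was higher in smxl6 smxl7 smxl8. Over all genes tested, 9.8% were higher and 8.41% lower in that contrast, so most did not pass. LHY was lower in smxl6 smxl7 smxl8 than in the libraries labelled smxl4 smxl5, by 1.2 (adjusted p = 0.00261), and RVE8, a morning activator gene, by 1.01.

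**Figure D2:**
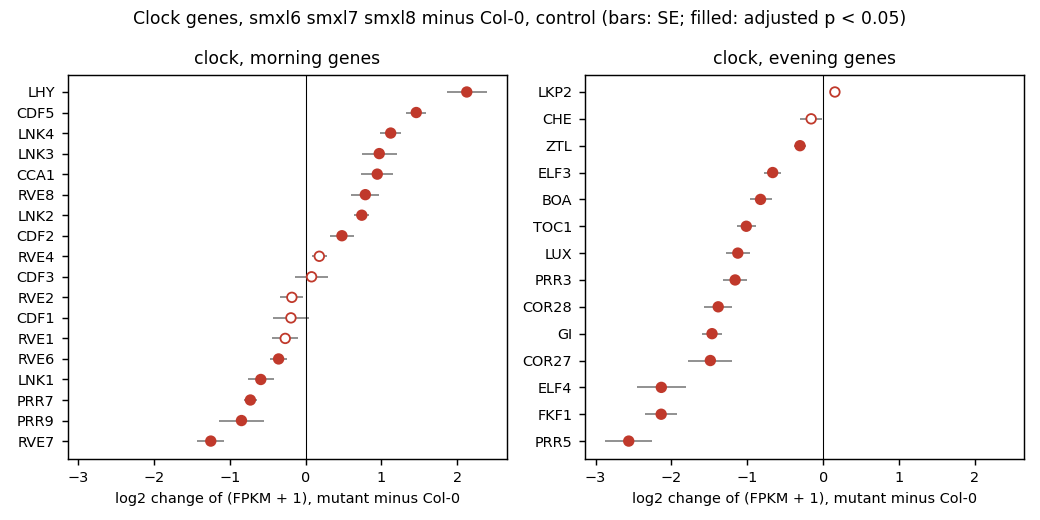
Log2 change (horizontal axis, of FPKM + 1) between smxl6 smxl7 smxl8 and Col-0 without heat for 18 morning and 14 evening clock genes, with bars for 1 SE and filled points for adjusted p under 0.05. All but LKP2 and CHE of the evening genes lie left of 0 as filled points, and the morning genes spread from RVE7 at −1.25 to LHY at 2.12.

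The evening element, AAAATATCT, is the binding site known for CCA1 and LHY. It was searched on both strands, as AAAATATCT or AGATATTTT, in the 300 bases before the gene starts of RefSeq in TAIR10.1. It was present in 6 of the 14 evening genes and in 1 of the 18 morning genes, and in 579 of 19702 tested protein-coding genes (2.94%). Of the genes that fell, 6.36% held it (174 of 2737), and of those that fell by at least 1 on the log2 scale, 13.0% (53 of 407). Of the genes that rose, 1.93% held it (54 of 2800), and of those not called 2.48%. These shares describe letters in a window and show neither binding nor cause. The windows of PRR5, FKF1, TOC1 and LUX, evening genes that fell, are shown 5′ to 3′ with the evening element in capitals:
PRR5, chr5:8358547-8358846, minus strand: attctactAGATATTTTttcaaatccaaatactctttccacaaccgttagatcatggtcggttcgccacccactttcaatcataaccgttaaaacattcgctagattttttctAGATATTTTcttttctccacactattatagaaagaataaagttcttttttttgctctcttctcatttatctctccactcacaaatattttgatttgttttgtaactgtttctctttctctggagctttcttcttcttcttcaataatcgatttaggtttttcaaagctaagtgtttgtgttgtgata
FKF1, chr1:25508339-25508638, plus strand: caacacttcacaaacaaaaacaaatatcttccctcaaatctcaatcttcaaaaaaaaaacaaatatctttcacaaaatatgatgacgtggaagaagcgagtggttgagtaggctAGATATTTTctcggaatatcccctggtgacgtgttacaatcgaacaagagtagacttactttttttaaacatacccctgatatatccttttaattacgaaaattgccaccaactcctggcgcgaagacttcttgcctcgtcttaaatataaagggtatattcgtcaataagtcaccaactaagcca
TOC1, chr5:24674663-24674962, plus strand: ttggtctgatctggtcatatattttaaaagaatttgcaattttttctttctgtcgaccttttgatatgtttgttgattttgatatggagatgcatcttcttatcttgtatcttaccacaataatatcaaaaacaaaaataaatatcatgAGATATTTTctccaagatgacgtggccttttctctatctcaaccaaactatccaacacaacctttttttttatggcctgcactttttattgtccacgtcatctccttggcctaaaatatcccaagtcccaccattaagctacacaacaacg
LUX, chr3:17182742-17183041, plus strand: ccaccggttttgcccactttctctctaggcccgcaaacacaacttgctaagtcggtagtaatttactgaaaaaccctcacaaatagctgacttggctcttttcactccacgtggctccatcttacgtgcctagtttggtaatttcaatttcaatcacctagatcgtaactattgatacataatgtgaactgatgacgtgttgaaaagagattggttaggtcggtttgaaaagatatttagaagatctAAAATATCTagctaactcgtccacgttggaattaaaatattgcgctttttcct

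Genes of starch turnover moved beside the clock. Of 22 starch genes, 13 fell and 2 rose, with a median of −0.49. PHS2, a cytosolic glucan phosphorylase, went from 82.4, 71.4 and 71.8 FPKM to 15.9, 19.5 and 16.4 (−2.07 ± 0.19, adjusted p = 1.01e-07). SS4, a starch synthase that starts granules, went from 25.1, 25.8 and 24.4 to 10.4, 9.78 and 9.27 (−1.27 ± 0.11, adjusted p = 6.56e-08), and AMY3, an alpha-amylase, fell by 1.09. The groups did not overlap in these genes. SEX1 and PWD, the dikinases that phosphorylate starch for breakdown, fell by 1.78 and 1.70, and the granule-bound starch synthase gene GBSS1 rose by 0.89. Clock genes moved in the same libraries, and their part in these and the following groups was not tested.

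Genes of early stress responses showed the largest median. Of 16 early stress factors, 13 fell and 0 rose, with a median of −1.64. ERF105, an ethylene response factor gene, stood at 64.8, 34.4 and 37.6 FPKM in Col-0 and 4.13, 2.39 and 4.69 in smxl6 smxl7 smxl8 (−3.28 ± 0.50, adjusted p = 5.01e-05). WRKY33, a regulator of defence against necrotrophic fungi, stood at 139, 102 and 70.8 against 14.3, 14.3 and 14.2 (−2.73 ± 0.40, adjusted p = 3.15e-05). Col-0 replicate 1 was the highest in both genes. The groups did not overlap, which for ERF105 was a condition of its choice. The cold regulators CBF1 and CBF2 fell by 2.64 and 3.21, CBF2 from between 7.03 and 41.7 FPKM to 1.09, 0.903 and 1.02, with the Col-0 libraries far from each other. Of 11 cold-regulated genes 7 fell and 0 rose (median −1.33), among them the chloroplast stroma protein gene COR15B (10.8, 7.70 and 9.32 FPKM against 0.313, 0.634 and 0.806; −2.70, adjusted p = 3.58e-07). In the direct contrast with the libraries labelled smxl4 smxl5, 15 of the 16 early stress factors did not pass. Most of all genes tested did not pass in it either (9.8% higher, 8.41% lower).

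Of 25 genes of abscisic acid and drought, 8 fell and 1, RD22, rose, with a median of −0.23, and 5 fell without Col-0 replicate 1. ABF1, a bZIP factor of the hormone's response, fell from 18.8, 18.9 and 16.8 FPKM to 5.90, 5.46 and 5.84 (−1.51 ± 0.18, adjusted p = 2.56e-06). NCED3, the key enzyme of stress-induced synthesis, fell by 1.77, with Col-0 at 13.3, 6.05 and 1.80 FPKM, and the hydroxylase genes CYP707A2 and CYP707A3, for its breakdown, fell by 1.31 and 1.52. Of 10 tested genes of salicylate and defence 6 fell and 0 rose, with a median of −0.32, and 3 fell without Col-0 replicate 1 or smxl6 smxl7 smxl8 replicate 3. Among the 18 genes of the heat shock list, HSFB2A alone was called, at −1.40 (16.6, 12.7 and 8.69 FPKM against 3.72, 4.61 and 3.83), and the list's median was 0.12.

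Of 20 tested jasmonate genes, 15 fell and 0 rose (median −0.87), with 9 falls without smxl6 smxl7 smxl8 replicate 3. AOC2, an allene oxide cyclase of jasmonate synthesis, stood at 185, 155 and 170 FPKM in Col-0 and at 66.3, 78.0 and 37.7 in smxl6 smxl7 smxl8 (−1.53 ± 0.23, adjusted p = 3.64e-05). VSP2, a vegetative storage protein gene that jasmonate induces, stood at 82.0, 62.1 and 55.2 against 14.3, 26.4 and 14.4 (−1.84 ± 0.31, adjusted p = 0.000133). Both groups of both genes lay apart. The transcription factor gene MYC2 fell by 1.44 and the repressor gene JAZ1 by 1.56. Here smxl6 smxl7 smxl8 also lay below the libraries labelled smxl4 smxl5 in 5 of the 20 genes and above in 1. Over all genes tested 8.41% were lower and 9.8% higher in that contrast. The list summed to 1059, 631 and 641 FPKM in the libraries labelled smxl4 smxl5, with replicate 1 far above the others. In smxl6 smxl7 smxl8 it summed to 506, 534 and 364. AOC2 differed by −1.43 (adjusted p = 0.000108), LOX2, a lipoxygenase of the pathway, by −1.38 (adjusted p = 0.000577) and VSP2 by −0.96 (adjusted p = 0.0329).

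**Figure D3:**
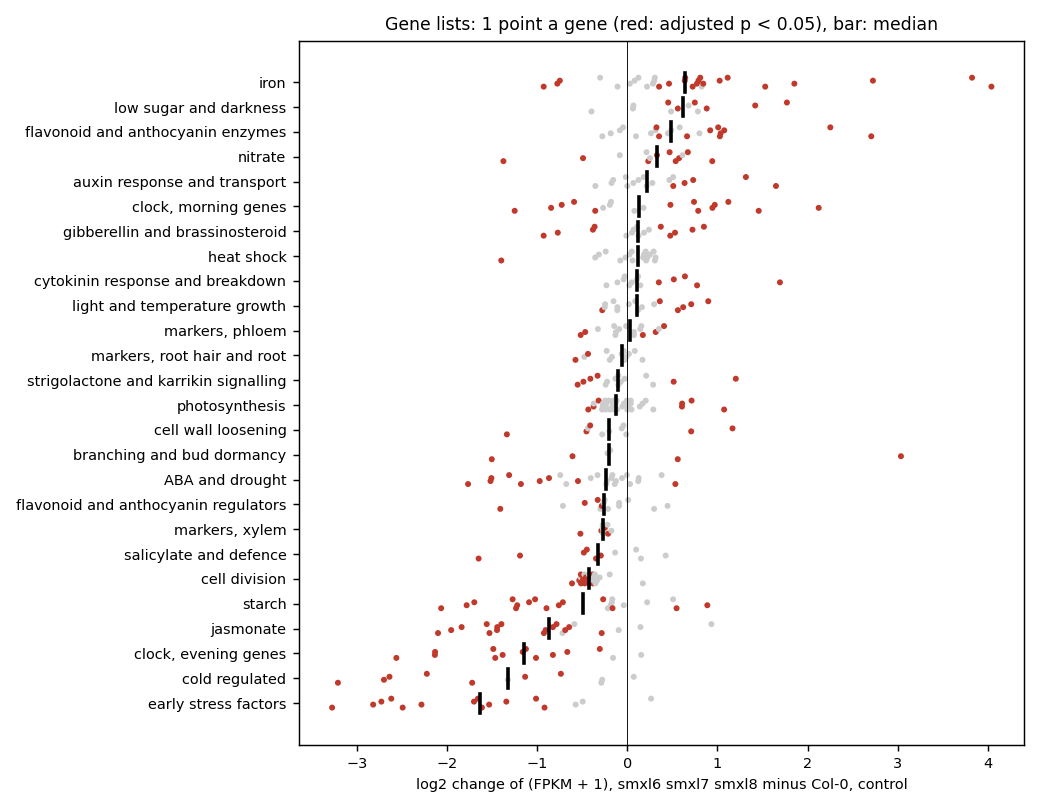
Log2 change (horizontal axis, of FPKM + 1) between smxl6 smxl7 smxl8 and Col-0 without heat for each tested gene of 26 lists (points; red for adjusted p under 0.05), with the median of each list as a bar. Early stress factors have the lowest median at −1.64 and iron genes the highest at 0.64, and members of most lists lie on both sides of 0.

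Iron genes rose. Of 29 tested, 16 rose and 3 fell, with a median of 0.64. Iron is taken up by roots through reduction by FRO2 and transport by IRT1, with coumarins such as fraxetin and its product made by CYP82C4 released to the soil, all under the transcription factor FIT. IRT1 stood at 4.09, 1.93 and 2.21 FPKM in Col-0 and at 50.1, 76.6 and 33.4 in smxl6 smxl7 smxl8 (3.83 ± 0.42, adjusted p = 1.09e-06). FRO2 stood at 0.541, 0.418 and 0.689 against 9.35, 13.6 and 6.06 (2.73 ± 0.29, adjusted p = 7.71e-07), and CYP82C4 rose by 4.04 ± 0.41, from no more than 1.00 FPKM to 27.3, 34.8 and 21.6. The groups lay apart in all 3 genes, which the rule that picked these genes required, with replicate 2 the highest. FIT itself rose by 0.64 (4.90, 4.19 and 4.00 FPKM against 6.22, 8.40 and 7.6; adjusted p = 0.00664). BHLH38 and BHLH39, partners of FIT, rose by 1.53 and 1.11 from a low level. The 3 genes that fell were the ferritins FER1, FER3 and FER4, iron stores of the plastid, at −0.75, −0.93 and −0.78; FER1 went from 485, 533 and 433 FPKM to 320, 274 and 267. In the direct contrast 12 of the 29 were lower in smxl6 smxl7 smxl8 than in the libraries labelled smxl4 smxl5 and 1 was higher: FRO2, at 27.9, 25.8 and 21.6 FPKM there, differed by −1.34 (adjusted p = 0.00243), whereas IRT1 at 113, 110 and 96.8 did not pass (−1.06, adjusted p = 0.0852).

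Genes of anthocyanin synthesis rose, and no tested regulator of them did. Of 21 tested enzymes of flavonoid and anthocyanin synthesis, 10 rose and 0 fell, with a median of 0.49, or 6 without Col-0 replicate 2. DFR, which reduces dihydroflavonols, stood at 8.45, 7.11 and 7.39 FPKM in Col-0 and 53.6, 79.1 and 39.9 in smxl6 smxl7 smxl8 (2.71 ± 0.40, adjusted p = 3.31e-05). LDOX, the next enzyme, stood at 6.89, 4.84 and 6.99 against 30.9, 40.3 and 29.3 (2.25 ± 0.34, adjusted p = 4.57e-05), and CHS, chalcone synthase, rose by 1.04 (97.4, 81.9 and 97.6 against 195, 226 and 155). Of the 14 tested regulators 0 rose and 4 fell, with a median of −0.26. MYBL2, a repressor of anthocyanin synthesis, fell from 143, 139 and 93.9 FPKM to 42.9, 52.9 and 42.0 (−1.41 ± 0.18, adjusted p = 5.5e-06), and LBD37, a nitrogen-responsive repressor, fell by 0.47. The activator gene MYB75 had means of 2.18 and 0.949 FPKM (−0.71, adjusted p = 0.068), and TT8, its bHLH partner, 0.662 and 1.27 (0.45, adjusted p = 0.11). In the direct contrast 16 of the 21 enzymes were lower in smxl6 smxl7 smxl8 than in the libraries labelled smxl4 smxl5 and 0 higher, DFR by 1.45 (adjusted p = 0.0136).

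**Figure D4:**
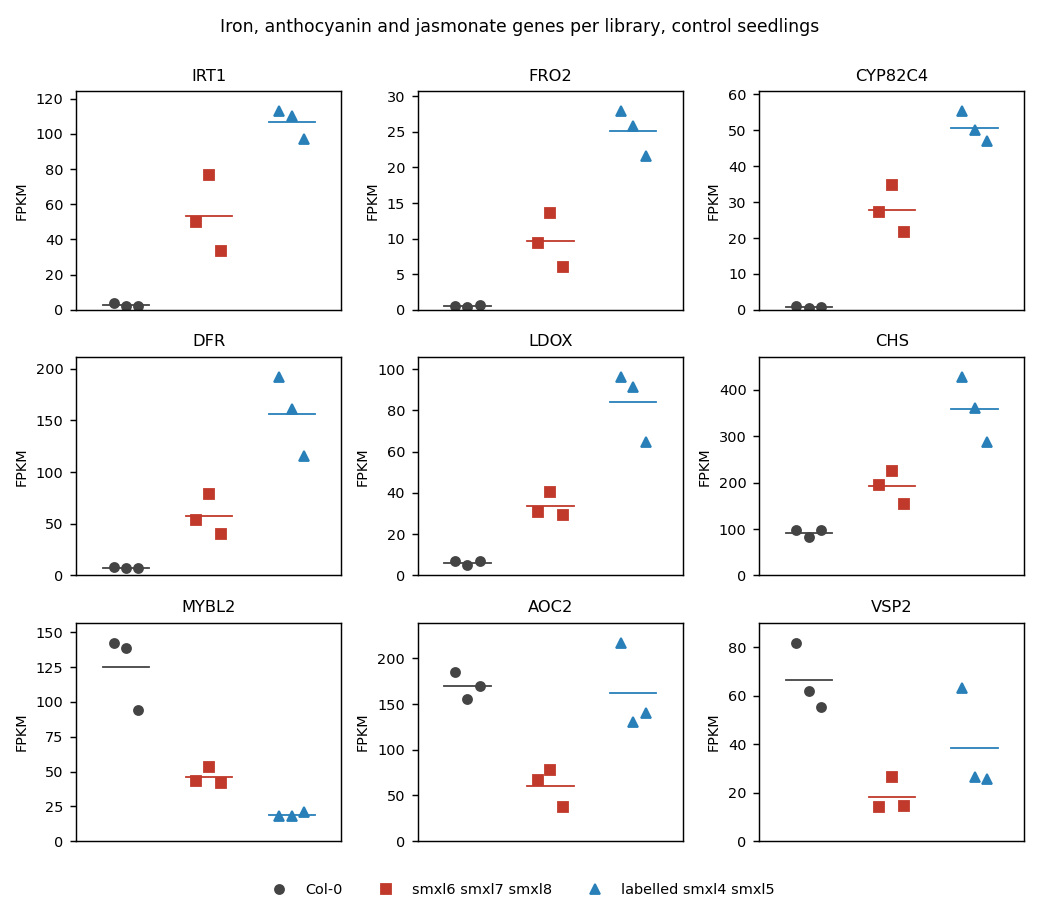
Transcript level (FPKM, vertical axis, from 0) of 3 iron uptake genes, 4 genes of anthocyanin synthesis or its repression and 2 jasmonate genes in each control library of Col-0 (circles), smxl6 smxl7 smxl8 (squares) and the libraries labelled smxl4 smxl5 (triangles), with bars for means of 3 libraries. FRO2, DFR, LDOX and CHS in smxl6 smxl7 smxl8 lie between Col-0 and the third group, whereas AOC2 is lowest in smxl6 smxl7 smxl8.

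The lists of growth hormone, light and cell wall genes held both rises and falls, apart from auxin genes, of which none fell. Over all genes tested 13.4% rose and 13.2% fell, and the wall counts stood no further from these shares than a few genes. Of 17 auxin genes 5 rose and 0 fell (median 0.21), with IAA29 up by 1.65 and GH3.3, an auxin-conjugating enzyme gene, from 6.09, 7.13 and 7.45 FPKM to 27.3, 11.7 and 19.9 (1.32 ± 0.21, adjusted p = 7.08e-05). In the direct contrast 5 of the 17 auxin genes were lower in smxl6 smxl7 smxl8 than in the libraries labelled smxl4 smxl5 and 0 higher. PHYA, the far-red light receptor gene, rose from 22.4, 24.1 and 25.6 to 41.2, 53.4 and 43.1 (0.90 ± 0.12, adjusted p = 8.46e-06), while PIF4 (0.02, adjusted p = 0.96) and PIF5 (−0.11, adjusted p = 0.46) did not pass, in a list of 16 light and temperature growth genes with 5 rises and 1 fall. Of 16 tested gibberellin and brassinosteroid genes 5 rose and 4 fell. GASA4, a gibberellin-regulated peptide gene, fell from 292, 312 and 296 FPKM to 157, 124 and 198 (−0.93), and BR6OX2, a brassinosteroid oxidase gene, rose by 0.85. Of 11 wall-loosening genes 2 rose and 3 fell: the xyloglucan endotransglucosylase gene XTH4 rose from 256, 255 and 291 to 553, 723 and 541 (1.17 ± 0.16, adjusted p = 1.64e-05), and the expansin gene EXPA8 fell by 1.34, while 1 of the 3 falls passed without Col-0 replicate 1. XTH33, from the same enzyme family and not in that list, rose from 1.32, 1.36 and 2.51 FPKM to 20.9, 26.0 and 13.6 (2.94, adjusted p = 1.59e-07).

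Nutrient and sugar genes rose more than they fell. Of 13 nitrate genes 7 rose and 2 fell (median 0.33): the transporter gene NRT1.1 rose by 0.67 and the repressor gene HHO2 fell by 1.37. Of 12 genes of low sugar and darkness, 6 rose and 0 fell (median 0.62), and 9 were higher than in the libraries labelled smxl4 smxl5 and 2 lower. BCAT2, an enzyme of branched-chain amino acids, rose from 1.09, 1.38 and 1.51 FPKM to 6.02, 4.56 and 5.11 (1.42 ± 0.18, adjusted p = 6.61e-06), and the asparagine synthetase gene ASN1 stood at 69.5, 95.5 and 61.2 FPKM against 32.2, 43.9 and 44.4 in Col-0 (0.88, adjusted p = 0.0464).

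Results on photosynthesis and cell division rested on the library that stood apart. Of 37 tested photosynthesis genes 4 rose and 3 fell with all libraries (median −0.13), and 22 fell without smxl6 smxl7 smxl8 replicate 2, whose summed level was 155862 FPKM against 107821 and 114612 in its group. The genes that rose included RBCS2B and RBCS1B of the Rubisco small subunit, by 0.71 and 1.07, with near-identical family members that may share reads. Of 25 cell division genes 13 fell and 0 rose (median −0.42), and 1 fell without that replicate, in which the list summed to 214 FPKM against 329 and 361 in its group and 373 to 428 in Col-0. MCM3, of the replication helicase, went from 10.1, 10.1 and 11.1 FPKM to 7.63, 5.54 and 8.11 (−0.51, adjusted p = 0.00908), and did not pass without it (−0.37, adjusted p = 0.0678). Among tissue markers, 4 of 10 xylem genes fell and 0 rose (median −0.27, summed level 87.5 to 92.7 FPKM against 108 to 121), with 2 falls without Col-0 replicate 2. Counts of phloem and root markers stood no further from the shares over all genes (13.4% higher, 13.2% lower) than a few genes: 3 of 16 phloem markers rose and 2 fell (summed level 359 to 368 FPKM against 332 to 339), and of 13 root markers 0 rose and 2 fell. None of the phloem or root falls passed with only the 6 libraries in the fit.

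The heat libraries give the same contrast with 6 other libraries, although the 2 contrasts share 1 estimate of the spread over all 30. There 2518 genes rose and 2610 fell (11.7% and 12.1%), and 932 rose in both contrasts, 32.2% of the control rises and 37.0% of the heat rises. Falls were shared by 1164 genes, 41.1% of the control falls and 44.6% of the heat falls, and 104 genes were called in opposite directions. Among named genes, BRC1 changed by 2.45 after heat (adjusted p = 6.29e-13), IRT1 by 2.37, AT1G75945 by −4.19 and PRR5 by −1.69, and all 14 evening genes fell. Col-0 heat replicate 2 stood apart from its group. It correlated with replicates 1 and 3 at r = 0.976 and 0.979 across genes and with the heat libraries of smxl6 smxl7 smxl8 at 0.976 to 0.978, while replicates 1 and 3 correlated at 0.985 with each other and at 0.966 to 0.971 with those libraries. In the Col-0 heat libraries PRR5 was at 27.5, 5.55 and 26.1 FPKM and ERF105 at 32.4, 3.82 and 27.4, against 4.08 to 4.8 and 4.59 to 6.51 in smxl6 smxl7 smxl8. Replicate 2 lay near the mutant libraries in both genes. After heat 5 of 16 early stress factors fell, or 6 without that replicate, and 6 of 20 jasmonate genes, or 12 without it; without either of the other Col-0 heat replicates, 1 early stress factor and 2 jasmonate genes fell. Of 37 photosynthesis genes 25 fell after heat and 2 rose (median −0.40), with 17 to 26 falls when any 1 heat library was left out. Of 25 cell division genes 0 fell and 1 rose (median 0.14). The test of the difference passed for 2 genes of each of these lists. Of the 12 low-sugar genes, 4 fell after heat and 0 rose, with 1 to 3 falls when any 1 heat library was left out. By the test of the difference, 6 of these genes had a lower change than without heat. Over all genes, 303 genes had a higher change after heat and 837 a lower one in the test of the difference (1.41% and 3.89%, 5.29% together). These counts leaned on single libraries. Leaving out Col-0 heat replicate 1 left 1335 rises and 1603 falls in the heat contrast, and leaving out replicate 2 raised them to 2891 and 2895. It had 1535 and 1667 without smxl6 smxl7 smxl8 heat replicate 3. The test of the difference gave 77 and 316 genes without smxl6 smxl7 smxl8 control replicate 2, and 867 and 1389 without its control replicate 3.

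**Figure D5:**
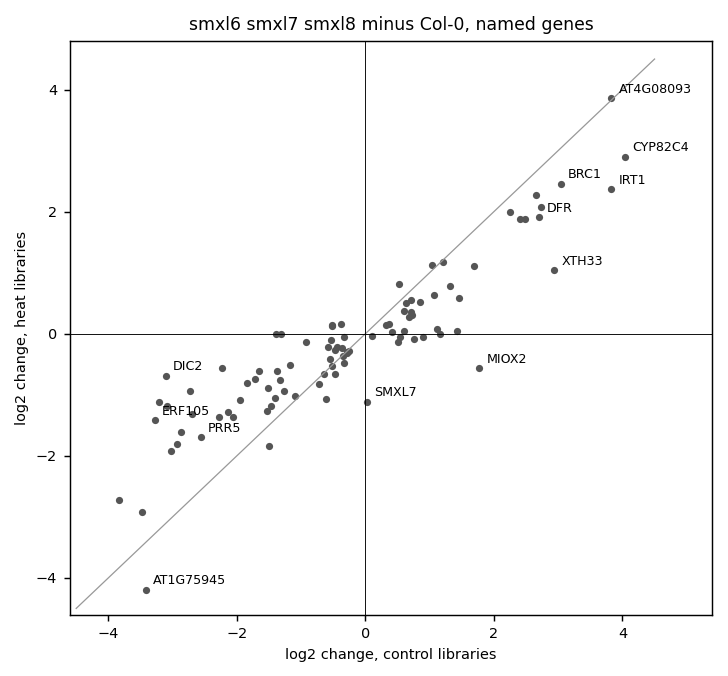
Log2 change (of FPKM + 1) between smxl6 smxl7 smxl8 and Col-0 in the control libraries (horizontal axis) and in the heat libraries (vertical axis) for the 93 named genes, with the line of equal change. All but the mutated genes were chosen by their change or adjusted p without heat, which leans the points towards a smaller change after heat. BRC1 keeps most of its change, and AT1G75945 has a larger change after heat (−4.19) than without it (−3.42). MIOX2 has a change of 1.77 without heat and −0.56 (not called) after it, and SMXL7 moves off 0 in the heat libraries.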

How the data were processed

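Messenger RNA of 7-day-old seedlings was sequenced in 30 libraries, 10 groups of 3, and groups and replicate numbers come from the labels. The authors deposited 1 table with a value per gene and library and no unit in its header. The deposited values were read as FPKM, because they are not whole numbers and their smallest steps scale with transcript length. Of tools, Bowtie appears in the submitters' processing notes, with no version given. What counted the reads, and which build and annotation served, is not given in the sources used here. Depth is known only as an estimate. Of 38088 identifiers, 37792 matched RefSeq (TAIR10.1), which gave names, coordinates and promoter windows.

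Values were taken as log2(FPKM + 1). A gene was tested if 3 or more libraries held 1 FPKM or more of it. limma 3.58.1 in R 4.3.3 was fitted to all 30 libraries with 1 mean per group and an intensity trend, and was tested on simulated data. The plan named edgeR for the case of count data, which did not arise. Some highly expressed genes, such as RBCS1A, are listed at 0 in whole groups and are not named as changed, and 17 called genes are listed at 0 in a group compared. Named genes are the 3 mutated genes, the 10 largest rises and 10 largest falls (at least 5 FPKM in the higher group, no overlap, not listed at 0 in a group), and up to 3 called genes per list with the smallest adjusted p; not all are described. Other list members are named to show a pathway and were chosen after their values were seen. The members and the 28 lists were chosen with earlier results of these data known. Alternatives were another pseudocount (0.1), other filters, 2 rescalings, smaller sets of libraries, a replicate block, no trend and leaving out each library.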

Additional observations from a re-analysis of the deposited data

Results flagged for a closer look

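For 20 named genes the change between smxl6 smxl7 smxl8 and Col-0 differed between the heat and the control libraries in limma's test of the difference itself (adjusted p under 0.05), given here as the heat change minus the control change on the log2 scale. SMXL7 had a difference of −1.13 (adjusted p = 0.000193), with its change at 0.02 without heat and −1.12 after it. BRC1 had a difference of −0.58 (adjusted p = 0.0384) and CKX1 one of −0.58 (adjusted p = 0.0255), and both were higher in smxl6 smxl7 smxl8 in either condition. The wall genes XTH33 and XTH4 had differences of −1.89 and −1.17, and the clock genes CDF5 and LNK4 of −0.87 and −1.05. PHYA and PIN3, an auxin efflux carrier gene, had differences of −0.95 and −0.65. BCAT2, TPS10 and MIOX2, genes of low sugar and darkness, rose without heat and did not pass after it (0.05, −0.08 and −0.56), with differences of −1.37, −0.83 and −2.34. RCA, the Rubisco activase gene, and GLU1, a glutamate synthase gene, had differences of −0.56 and −0.60. Among genes that fell without heat, the difference was positive in GASA4 (0.80), CYP707A2 (1.31), COR15B (1.38), HSFB2A (1.40), the ribonucleotide reductase gene RNR2A (0.55) and NAC045, a phloem factor gene (0.65). Over all genes tested 5.29% passed this test. That share is no yardstick for the named genes. All but the mutated ones were chosen by their change or adjusted p against Col-0 without heat. The difference contains that same control change, so the choice alone leans it towards a smaller change after heat. What part of the differences this accounts for was not tested. Without Col-0 heat replicate 2, which lay near the mutant in many genes, 14 of the 20 passed, and over the 12 libraries left out in turn 12 to 19 did. BRC1, CKX1, RCA, GLU1, CYP707A2, COR15B, HSFB2A and NAC045 each lost the call without at least 1 library, and the others kept it.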

How the results depend on the processing

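With no libraries in the fit but those of the groups compared, fewer genes passed: 1321 rose and 1593 fell against Col-0 without heat, 819 were higher and 564 lower than in the libraries labelled smxl4 smxl5, 882 and 885 after heat, and 11 and 49 in the test of the difference. Fewer samples then estimate the spread, by construction. Leaving out each library in turn gave 2106 to 2870 rises and 2062 to 2685 falls against Col-0 without heat, 1414 to 2375 and 1244 to 2185 against the libraries labelled smxl4 smxl5, 1335 to 2891 and 1603 to 2895 after heat, and 77 to 867 and 316 to 1389 in the test of the difference. The other alternatives kept each of these counts within 1.5 times. Among named genes, SMXL7 changed sign without Col-0 replicate 3 and without smxl6 smxl7 smxl8 replicate 2 (range with 1 library left out −0.0869 to 0.0779), and CRA1, a seed storage gene near 0, without smxl6 smxl7 smxl8 replicate 3 (range −0.0038 to 0.20); none of these was called, and the cause was not tested. With only the libraries compared, 19 of 93 named genes lost their call, and 22 of 54 list counts moved by over 1.5 times (cell division falls from 13 to 0, salicylate falls from 6 to 2, nitrate rises from 7 to 3, cytokinin rises from 5 to 2, strigolactone and karrikin falls from 4 to 0). Other settings moved 5 list counts (at least 5 FPKM in 3 libraries), 4 (no filter), 3 (pseudocount 0.1), 3 (only the 15 control libraries), 2 (replicate block), 1 (no trend) and 1 (upper-quartile rescaling). Leaving out 1 library in turn moved list counts in 58 cases and kept them in 266, and it ended 11 calls of named genes, in D27, SMXL2, CYCB1;4, MCM3, XCP1, CESA8, CASP1 and COBL9. Same-numbered libraries of smxl6 smxl7 smxl8 and Col-0 showed no shared deviation (correlations of −0.177, −0.023 and 0.114, against −0.200 to 0.213 for libraries of unequal number). With 3 libraries per group, such values cannot exclude that same-numbered samples were handled together. With a replicate block 2806 genes rose and 2768 fell. Low values are limited by an estimated 16.8 to 21.1 reads per FPKM and kilobase.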
